A study of Mus musculus with 12 samples.

Results

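The potassium channel genes described here are the 82 protein-coding mouse genes whose symbol is Kcn followed by a family letter (a to h, j, k, ma, mb, n, q, s, t or v) and a number, which takes in pore-forming subunits and the small Kcne and Kcnmb auxiliary subunits. They were picked by name from the 30165 genes of the oligodendrocyte precursor cell (OPC) table, and 81 of them were also present among the 17918 genes of the Neuron table, Kcna10 being the exception. A mean normalized count of at least 10 was reached by 64 of the 82 in the OPC libraries and by 67 of the 81 in the Neuron libraries, and 58 genes reached it in both.

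Bulk RNA-seq was performed on OPCs and neurons from the cortex of 2 groups of mice, with 3 libraries per cell type and group and the cells of 2 mice pooled in each library. In dKO mice, NG2-CreERT2, a tamoxifen-inducible Cre driven from the NG2 (Cspg4) gene, was combined with floxed alleles of Cav1.2 (Cacna1c, exons 14 and 15) and Cav1.3 (Cacna1d, exon 2), the pore subunits of the L-type voltage-gated calcium channels. The ctl mice carry the genotype label WT, and whether they carried Cre or floxed alleles is not given in the sources used here. Tamoxifen was given at 100 mg/kg on postnatal days 7 and 8, and the age at sorting is not given. OPCs were bound to magnetic beads carrying CD140, NG2 and O4 antibodies, which also retain O4-bearing oligodendrocytes, whereas neurons were the flow-through after astrocytes (ACSA-2), endothelial cells (CD31), microglia (CD11b) and the oligodendrocyte lineage (O4) had been held back. None of these antibodies is directed at choroid plexus epithelium. Because NG2 is also expressed by pericytes, recombination outside OPCs cannot be told apart from that in OPCs by these libraries.

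Potassium channels let K+ leave or enter cells down its electrochemical gradient and thereby set the resting potential, end action potentials and clear the K+ that active neurons release. Voltage-gated (Kcna, Kcnb, Kcnc, Kcnd, Kcnh, Kcnq), inwardly rectifying (Kcnj), tandem pore domain (Kcnk) and calcium- or sodium-activated (Kcnma, Kcnn, Kcnt) families share this task, and silent (Kcnf, Kcng, Kcns, Kcnv) and auxiliary (Kcne, Kcnmb) subunits tune them. OPCs carry delayed rectifier, A-type and inward rectifier currents, the last largely through Kcnj10, and lose much of the voltage-gated K+ current as they mature into oligodendrocytes.

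Several features of the libraries bear on every value below. Total counts were 14935963 to 19812274 per OPC library and 15052892 to 16344601 per Neuron library. Whole-gene counts of Cacna1c were 373, 411 and 439 in the ctl OPC libraries and 252, 337 and 312 in the dKO OPC libraries, giving a log2 fold change of -0.44 (SE 0.15, edgeR adjusted p = 0.349) with no overlap, and that of Cacna1d was -0.55 (SE 0.31, adjusted p = 0.531). Transcripts that lack the floxed exons are still counted, so these values do not measure recombination. Markers of other cells were abundant. In OPC libraries, 10 oligodendrocyte markers summed to 8251 to 14260 FPKM against 406 to 821 FPKM for 10 OPC markers. In Neuron libraries, 10 neuron markers summed to 513 to 921 TPM, against 6815 to 17480 TPM for 10 endothelial markers and 14500 to 74410 TPM for 10 choroid plexus genes, a list chosen after the values had been seen and dominated by Ttr. None of the listed markers was at 0 in every library. Summed neuron markers thus lay below summed endothelial markers and choroid plexus genes in every Neuron library. In OPC libraries the same choroid plexus genes summed to 9619 to 21230 FPKM. The Y-linked genes Kdm5d, Uty, Eif2s3y and Ddx3y were at 0 in OPC dKO replicate 2, where Xist reached a normalized count of 13590, whereas Xist stayed at or below 20.2 in the other OPC libraries. In Neuron libraries, ctl replicate 1 and dKO replicate 1 alone held Kdm5d, at 508 and 399, against at most 5.36 elsewhere. In bulk samples such as these, fewer cells of a type and less RNA per cell cannot be told apart.

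In OPCs, the inward rectifier Kcnj10, which carries K+ into astrocytes and oligodendrocyte lineage cells, had the highest level of all 82 genes, at 112 ± 14.6 FPKM (SD, n = 3) in ctl libraries, where FPKM is the read count scaled by gene length and sequencing depth. Its gene was placed by the deposited table at chr1:172168777-172201652 on the plus strand, in coordinates of mm39, the build named in the submitters' processing notes. Kcne2, a small auxiliary subunit of epithelia, came next at 62.0 ± 26.7 FPKM, and Kcnj13, an inward rectifier of choroid plexus and retinal pigment epithelium, after it at 37.4 ± 15.8 FPKM. The part of choroid plexus RNA in the Kcne2 and Kcnj13 levels was not tested. The shaker-type channels Kcna1 and Kcna6, which give delayed rectifier currents, stood at 35.0 ± 8.42 and 33.8 ± 7.56 FPKM, so that the ranks 3 to 5 did not differ beyond their spread. Rank 2 was not settled either, since in ctl replicate 2 Kcne2 (41.55 FPKM) lay below Kcna1 (44.69 FPKM) and Kcna6 (42.52 FPKM). The tandem pore channels Kcnk1 (25.7 ± 8.66 FPKM) and Kcnk13 (24.6 ± 4.73 FPKM), both of which pass leak currents, completed the 7 genes at or above 10 FPKM. Of the rest, Kcnh2, an ether-a-go-go related channel best known from heart, was highest at 8.99 ± 2.99 FPKM. In all, 30 genes reached 1 FPKM, the median of the 82 was 0.471 FPKM and none was at 0 in all ctl libraries.

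The leading members of other families in OPC ctl libraries were low. Kcnq3, a subunit of the M-current, was at 6.62 ± 1.33 FPKM and Kcnmb1, the smooth muscle auxiliary subunit of large-conductance calcium-activated channels, at 5.36 ± 1.26 FPKM. Kcnmb1 overlaps the protein-coding gene Kcnip1, which had a ctl mean of 0.241 FPKM. Kcnn1 of the small-conductance calcium-activated channels was at 1.84 ± 0.288 FPKM, and the A-type channel Kcnd3 at 1.24 ± 0.262 FPKM. The silent subunit Kcns1 (0.842 ± 0.392 FPKM) and the sodium-activated channel Kcnt1 (0.770 ± 0.173 FPKM) were lower still.

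In the Neuron libraries the order was led by Kcnj13 at 116 ± 37.0 TPM (SD, n = 3), TPM being the length-scaled share of each transcript in its library, and by Kcne2 at 74.7 ± 34.4 TPM. Both are known from choroid plexus epithelium. Kcnj13 (chr1:87314085-87322451, minus strand) lies within Gigyf2, and since the library kit does not mark strand, reads of an overlapping gene cannot be told apart. Kcne2 (chr16:92089277-92095017, plus strand) overlaps no gene in RefSeq. Kcnk1 (27.6 ± 12.3 TPM), Kcnh6 (24.2 ± 2.63 TPM) and Kcnq1 (14.5 ± 0.801 TPM) came next. Nearly all the estimated counts of Kcnh6, an ether-a-go-go related channel, were assigned to 1 predicted transcript model of a locus that overlaps a long noncoding RNA, and in the OPC table the gene held normalized counts of 2.38 to 10.5, so its level in Neuron libraries is uncertain. Kcnq1, a channel of heart and epithelia that pairs with Kcne subunits, overlaps Kcnq1ot1. Kcne4 (11 ± 1.68 TPM) and Kcnj8 (10.3 ± 3.91 TPM), the pore of the pericyte ATP-sensitive channel, were the other 2 of the 7 genes at or above 10 TPM.

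The leading members of other families were lower in the Neuron ctl libraries. Kcnn2 was at 7.21 ± 0.495 TPM and Kcnmb4, the brain auxiliary subunit of large-conductance channels, at 4.73 ± 1.63 TPM. Kcna3, a shaker-type channel of lymphocytes and microglia, had the highest mean of its family at 2.08 ± 0.906 TPM. Kcna1 (1.963 ± 0.889 TPM) and Kcna5 (1.813 ± 1.075 TPM) lay within its spread. Kcnc1, which lets interneurons fire fast, was at 1.63 ± 0.615 TPM. Kcnd3 (1.59 ± 0.365 TPM), Kcnt2 (0.887 ± 0.242 TPM) and the silent subunit Kcng4 (0.587 ± 0.407 TPM) had the highest means of their families. Kcnj10 held rank 18, with 4.84, 2.28 and 0.860 TPM in ctl and 0.740, 2.49 and 2.73 TPM in dKO libraries. In all, 38 of the 81 genes reached 1 TPM, the median was 0.853 TPM and 3 genes were listed at 0 in all ctl libraries. The scales of the tables differ, since TPM values have the same sum in every library and FPKM values do not, and no test was made between cell types.

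**Figure D1:**
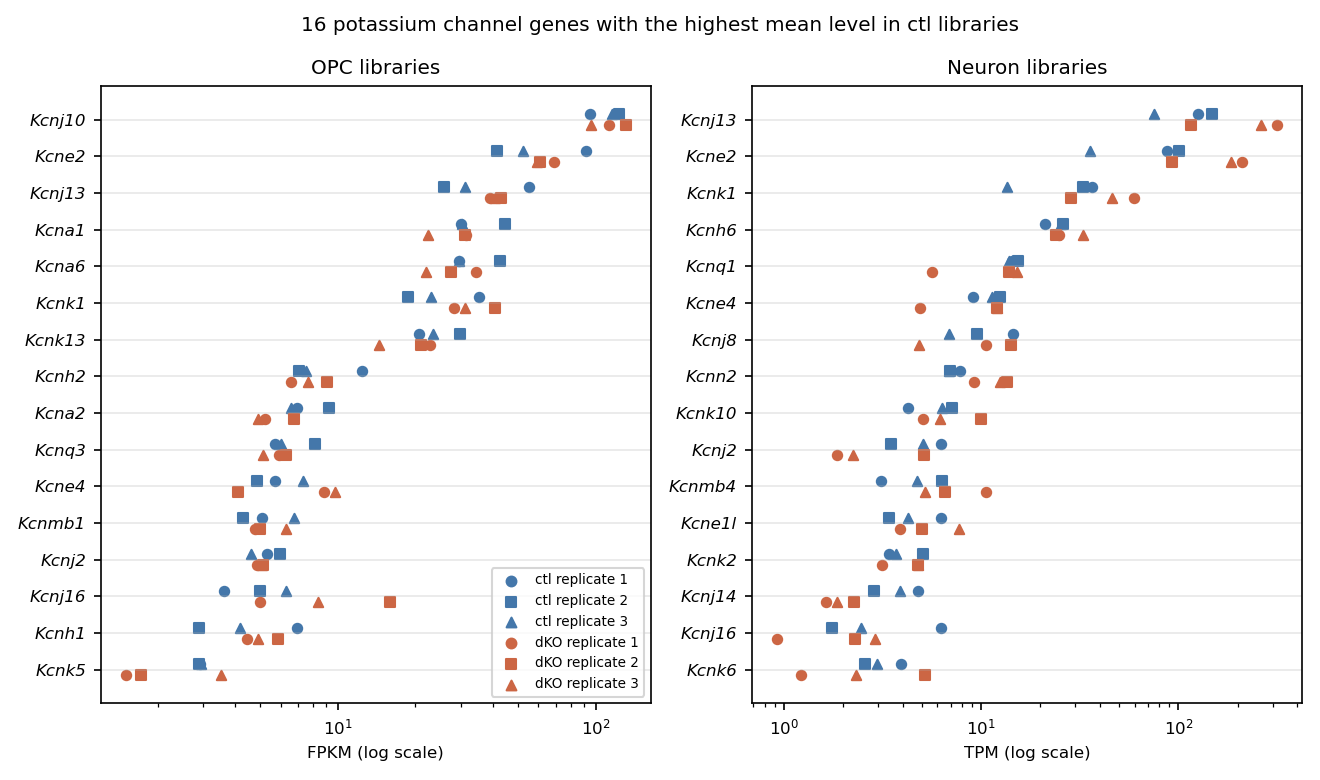
Level per library of the 16 potassium channel genes with the highest ctl mean, in FPKM for OPC (left) and in TPM for Neuron libraries (right), on log axes. Points are single libraries, with blue for ctl, orange for dKO and one marker shape per replicate number. Kcnj10 leads in OPC libraries with all points between 95.6 and 131 FPKM, and Kcnj13 and Kcne2 lead in Neuron libraries, where dKO replicates 1 and 3 lie to the right of all ctl libraries.

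The genes at the top of each order are shown with the sequence before their start. The 250 bases upstream of the transcription start are given, 5′ to 3′ along the gene's strand, for the leading OPC gene Kcnj10 and for Kcnj13 and Kcne2, which were high and low in the same Neuron libraries; TATAAA, searched on both strands, is in capitals where present. They were read from RefSeq (GRCm38.p6) at chr1:172340960-172341209 (plus strand), chr1:87394730-87394979 (minus strand) and chr16:92292139-92292388 (plus strand, the outermost of 2 starts).
Kcnj10: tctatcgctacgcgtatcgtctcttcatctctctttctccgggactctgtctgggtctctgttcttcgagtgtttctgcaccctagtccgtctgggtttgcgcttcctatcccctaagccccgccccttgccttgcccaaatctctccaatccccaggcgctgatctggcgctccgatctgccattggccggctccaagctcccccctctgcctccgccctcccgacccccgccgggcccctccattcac
Kcnj13: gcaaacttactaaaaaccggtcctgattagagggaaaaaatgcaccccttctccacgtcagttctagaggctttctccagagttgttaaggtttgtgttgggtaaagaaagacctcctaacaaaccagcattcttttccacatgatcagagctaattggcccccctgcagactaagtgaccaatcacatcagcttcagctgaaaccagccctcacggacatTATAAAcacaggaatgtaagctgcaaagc
Kcne2: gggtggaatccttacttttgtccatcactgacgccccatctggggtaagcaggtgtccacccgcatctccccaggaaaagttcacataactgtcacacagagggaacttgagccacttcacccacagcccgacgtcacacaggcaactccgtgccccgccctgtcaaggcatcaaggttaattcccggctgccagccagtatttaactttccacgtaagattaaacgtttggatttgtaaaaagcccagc
The Kcnj10 window had 62% G+C and 17 CG dinucleotides, the Kcne2 window 52.4% and 9, and the Kcnj13 window 45.2% and 3, with TATAAA beginning 29 bases before the start. Over the 75 windows found for 59 of the 82 genes the median was 58.8% G+C and 8 CG dinucleotides, against 52.4% and 6 over all 32851 windows, and TATAAA was present in 3 of the 75 (4%) against 12.4% of all windows. A match describes the letters of the window and is not a binding site.

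The question of the dKO comparison is whether loss of L-type calcium channels from OPCs goes with altered transcripts in OPCs and in the neurons around them. In OPCs, 9 of 64 genes (14.1%) had an unadjusted p under 0.05 in edgeR's quasi-likelihood test, against 11.5% of the 17364 genes tested. Of these, 8 (12.5%) were higher in dKO, namely Kcnn2, Kcnt2, Kcnd2, Kcnd1, Kcnc4, Kcnj16, Kcng4 and Kcnk6, against 6.27% of all genes, and 1 (1.56%), Kcna2, was lower, against 5.27%. No potassium channel gene had an adjusted p under 0.05, which 0.00576% of all genes (1 gene) had, and the smallest was 0.288 for Kcnn2. The ctl and dKO libraries did not overlap for 7 genes (10.9%), all higher in dKO, against 17.0% of all genes. By sign alone 42 of 64 (65.6%) were higher in dKO, against 50.8%, and the median log2 fold change was 0.22, against 0.01 over all genes. Without dKO replicate 2, the library in which 29 of the 64 genes had their highest count, the median was 0.08, and without ctl replicate 2 it was 0.10. An absolute log2 fold change of at least 1 was found for 7 genes, all higher in dKO and all with a ctl mean below 1 FPKM. In the same libraries, markers of several cell types had positive values: 10 of 10 microglia markers (median log2 fold change 1.32, 10 with an unadjusted p under 0.05), 10 of 10 astrocyte markers (1.00, 8 with p under 0.05), 9 of 10 neuron markers (0.41, 1), 7 of 10 OPC markers (0.40, 0), 8 of 10 mural cell markers (0.39, 0) and 10 of 10 endothelial markers (0.23, 0). In dKO replicate 2, 8 of the astrocyte, 7 of the neuron and 7 of the OPC markers had their highest FPKM, against 0 of the microglia, mural cell, endothelial and oligodendrocyte markers. Summed levels of the astrocyte and microglia markers are given beside Kcnj16 and Kcnk6. The sum of the neuron markers was 29.9 to 42.7 FPKM in ctl and 36.4 to 46.1 FPKM in dKO libraries, and that of the OPC markers 527 to 821 FPKM in ctl and 406 to 744 FPKM in dKO libraries. The part of these cells in the channel values was not tested.

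**Figure D2:**
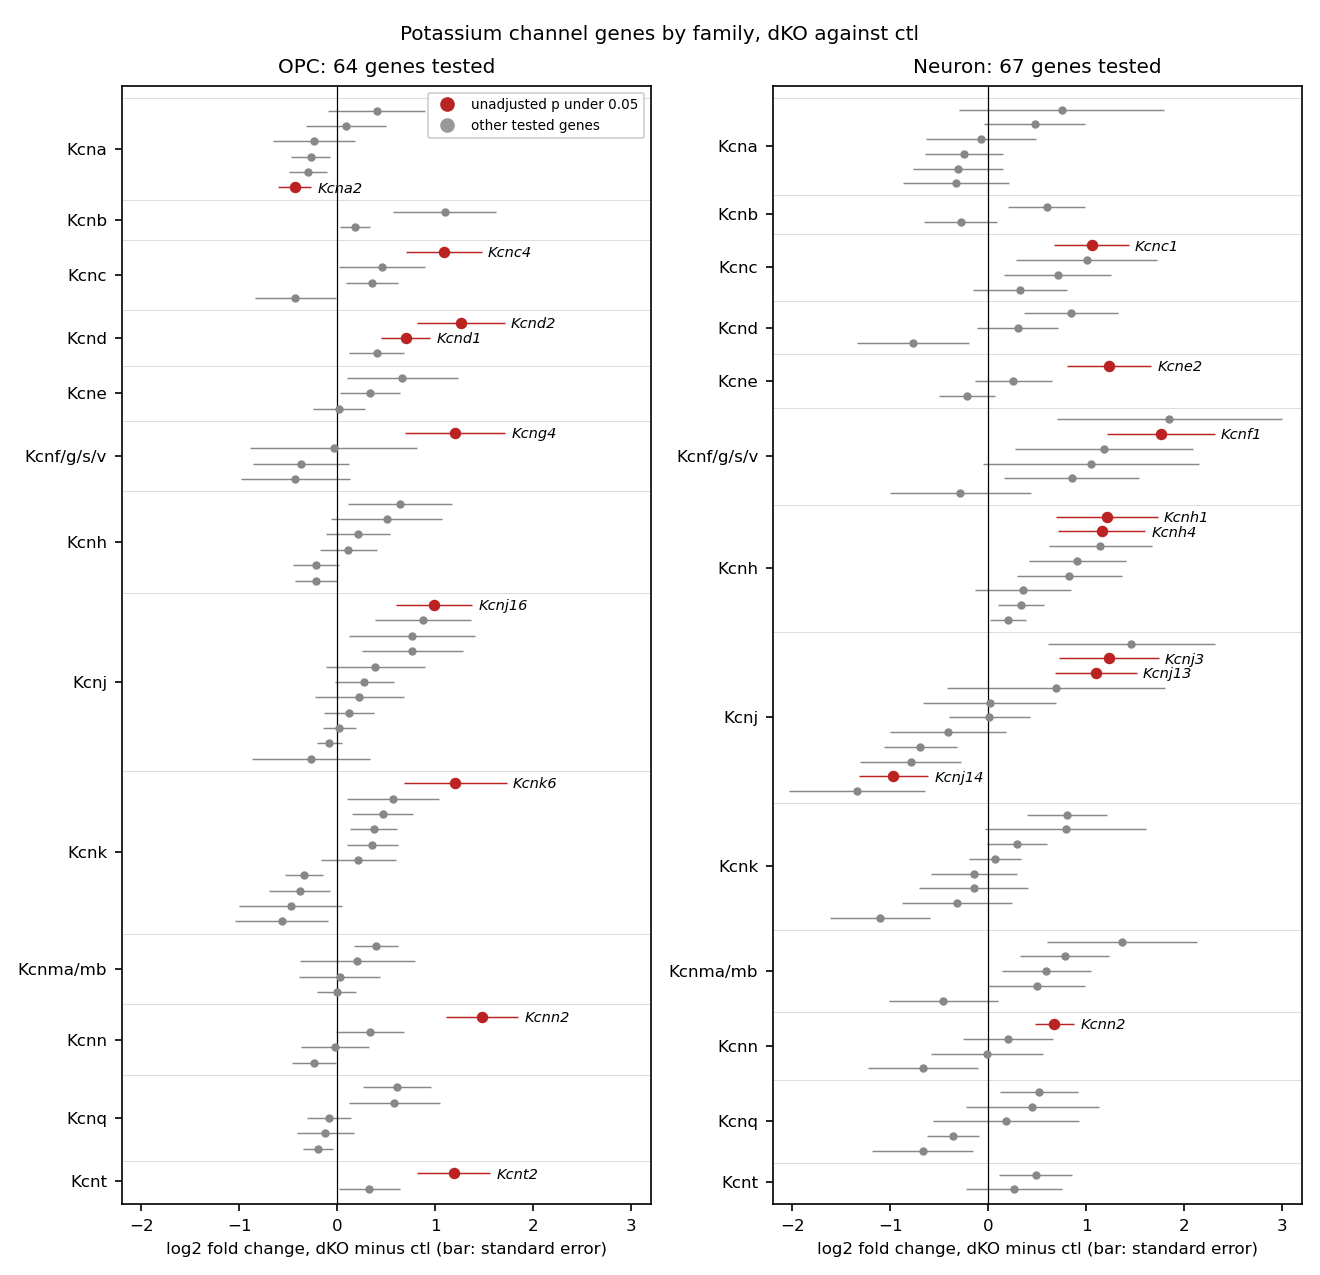
Log2 fold change of dKO over ctl for every tested potassium channel gene, grouped by family, in OPC (left, 64 genes) and Neuron libraries (right, 67 genes). Points are edgeR estimates and bars their standard errors, with genes of unadjusted p under 0.05 in red and named; 8 of the 9 red points lie above 0 in each panel, and all 8 Kcnh genes lie above 0 in Neuron libraries.

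Among the calcium- and sodium-activated channels, Kcnn2 had the smallest p of all potassium channel genes in OPCs. Kcnn2 encodes a small-conductance channel that opens when calcium binds its calmodulin and that is coupled to calcium entry in many neurons. Its normalized counts were 44.6, 65.5 and 89.8 in ctl and 104, 239 and 213 in dKO libraries. Every dKO library lay above every ctl library, a log2 fold change of 1.48 (SE 0.37, unadjusted p = 0.0035, adjusted p = 0.288), and with DESeq2 the adjusted p was 0.0141. The p stayed under 0.05 without any 1 of the 6 libraries, with log2 fold changes from 1.25 to 1.76. Summed astrocyte markers put the 6 libraries in the same order, at 277, 382 and 435 FPKM in ctl and 448, 917 and 565 FPKM in dKO. Their part in the Kcnn2 value was not tested. Several long noncoding RNAs overlap the gene. Its relatives had log2 fold changes of 0.33 (SE 0.35) for Kcnn3, -0.03 (SE 0.35) for Kcnn4 and -0.24 (SE 0.22) for Kcnn1. The sodium-activated Kcnt2 was rare, at 10.5, 14.3 and 13.6 counts in ctl and 22.5, 31.8 and 33.2 in dKO. Its groups did not overlap either (log2 fold change 1.19, SE 0.37, adjusted p = 0.320), and p stayed under 0.05 in 6 of 6 fits that left out a library. The large-conductance channel Kcnma1 also lay higher in every dKO library, at 121 to 178 against 93.0 to 119, by 0.39 (SE 0.22, unadjusted p = 0.118). Without dKO replicate 2 its value was 0.20.

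The voltage-gated families had values of either sign in OPCs. All 3 A-type channels had positive values, against 50.8% of all genes: Kcnd2, an A-type channel of dendrites, counted 55.1, 118 and 88.8 in ctl and 125, 358 and 139 in dKO (log2 fold change 1.26, SE 0.45, adjusted p = 0.364). The highest value is that of dKO replicate 2, without which the log2 fold change was 0.61. The p was not under 0.05 without that library, nor without ctl replicate 1 (1.01) or 3 (1.26). The X-linked Kcnd1 was more even, at 42.0, 39.3 and 43.9 in ctl and 60.6, 68.0 and 74.9 in dKO (0.70, SE 0.25, adjusted p = 0.365). Its groups were apart and its value ranged from 0.61 to 0.77 over the fits without 1 library, with p at or over 0.05 without ctl replicate 1 or 2 or dKO replicate 3. Kcnd3 was at 0.40 (SE 0.28, unadjusted p = 0.187), and at 0.17 without dKO replicate 2. Of the 4 fast delayed rectifiers, Kcnc4 counted 35.0, 56.0 and 46.0 in ctl and 57.7, 151 and 80.2 in dKO, apart by 1.08 (SE 0.39, adjusted p = 0.367). Without dKO replicate 2 this was 0.60, and p was not under 0.05 without that library or without ctl replicate 1 (0.92) or 3 (1.08). The silent subunit Kcng4, which alters Kcnb channels, counted 19.2, 40.5 and 38.7 in ctl and 41.1, 133 and 50.3 in dKO. Its groups were apart by a margin of under 1 count, with a log2 fold change of 1.20 (SE 0.51, adjusted p = 0.427) that was 0.49 without dKO replicate 2, with p under 0.05 in only 2 of 6 fits without 1 library.

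In the shaker-type family, which holds abundant OPC channels, 4 of the 6 genes tested had negative values, against 50.8% of all genes above 0. Kcna2 counted 1473, 1926 and 1382 in ctl and 1084, 1425 and 1024 in dKO, so dKO replicate 2 overlapped ctl (log2 fold change -0.44, SE 0.17, adjusted p = 0.395). The value ranged from -0.60 without dKO replicate 2 to -0.28 without ctl replicate 2, and p was not under 0.05 without ctl replicate 2, dKO replicate 1 or dKO replicate 3. Kcna1 was at -0.30 (SE 0.19, unadjusted p = 0.153), with 2542, 3725 and 2548 in ctl and 2616, 2639 and 1889 in dKO. Kcna6 was at -0.27 (SE 0.20, unadjusted p = 0.203). Without ctl replicate 2 the values were -0.10 for Kcna1 and -0.08 for Kcna6. For Kcna1, Kcna2 and Kcna6 the highest library was ctl replicate 2, which also had the highest summed OPC and oligodendrocyte markers, 821 and 14260 FPKM. Their lowest library was dKO replicate 3, which also had the lowest of these sums, 406 and 8251 FPKM. Of the 10 oligodendrocyte markers in OPC libraries, 2 had a log2 fold change above 0 and 3 were lower at an unadjusted p under 0.05, with a median log2 fold change of -0.42, and their part in these values was not tested. Kcnq3 (-0.20, SE 0.15) and Kcnh2 (-0.22, SE 0.23) had unadjusted p of 0.233 and 0.372.

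**Figure D3:**
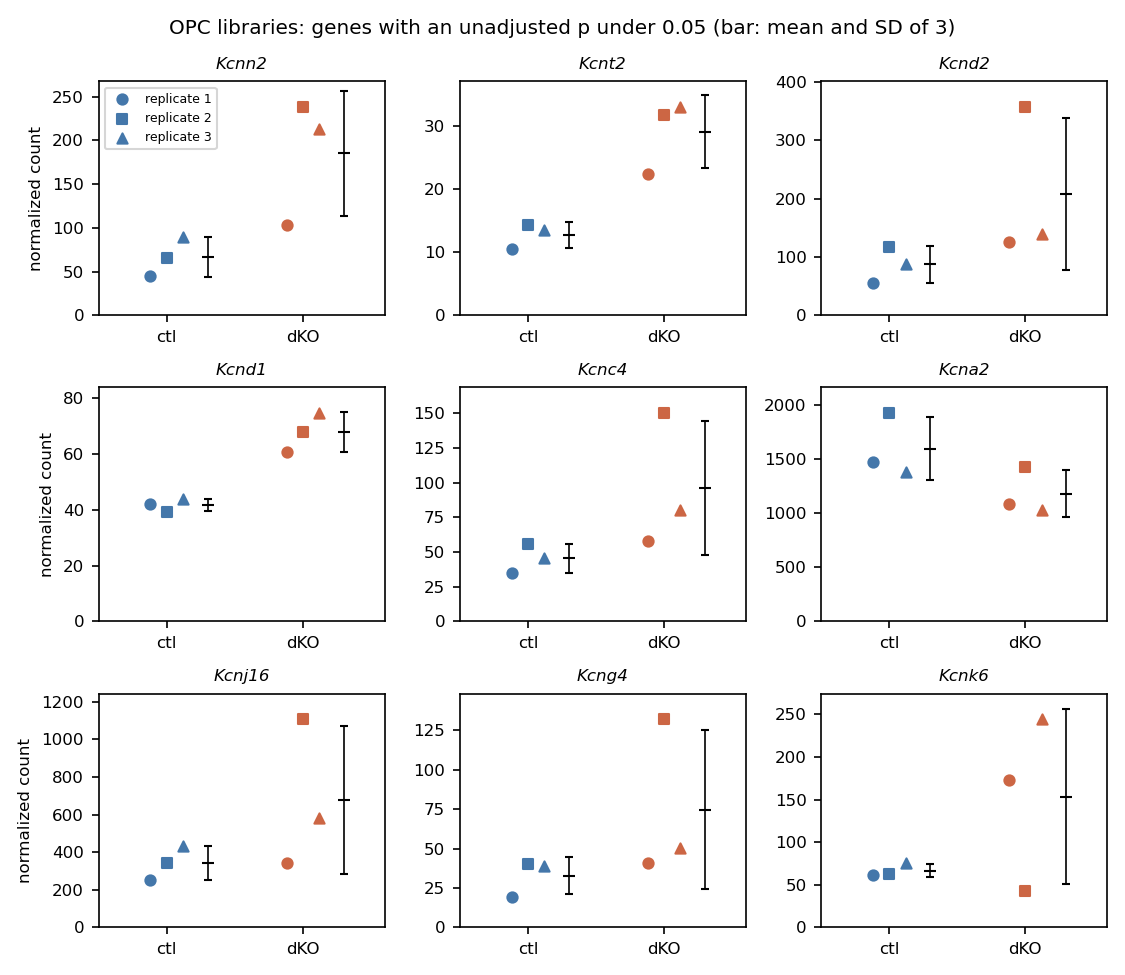
Normalized counts per OPC library of the 9 potassium channel genes with an unadjusted p under 0.05, in order of p, with ctl in blue and dKO in orange, one marker shape per replicate and bars for mean and SD of 3. For Kcnn2, Kcnt2, Kcnd2, Kcnd1, Kcnc4 and Kcng4 all dKO points lie above all ctl points, and dKO replicate 2 (square) is the highest point for Kcnn2, Kcnd2, Kcnc4, Kcnj16 and Kcng4 but the lowest for Kcnk6.

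Among inward rectifiers, Kcnj10 itself had a log2 fold change near 0 in OPCs. Its normalized counts were 9179, 11670 and 11040 in ctl and 10630, 12540 and 9191 in dKO libraries, which gave a log2 fold change of 0.02 (SE 0.17, unadjusted p = 0.902) whose sign turned without ctl replicate 1 (-0.07) or dKO replicate 2 (-0.10). Kcnj16, which forms mixed channels with Kcnj10 in astrocytes, counted 253, 343 and 435 in ctl and 342, 1111 and 580 in dKO (0.98, SE 0.39, adjusted p = 0.400). The groups overlapped, and without dKO replicate 2 the value was 0.43, with p at or over 0.05 there and without ctl replicate 1 (0.80) or 2 (0.98). Summed astrocyte markers moved with it: they were 277, 382 and 435 FPKM in ctl and 448, 917 and 565 FPKM in dKO libraries, 8 of 10 higher at an unadjusted p under 0.05 (the list includes Kcnj10), and their part in the Kcnj16 value was not tested. Of the 4 channels known from astrocytes, Kcnj16, Kcnk1 (0.37, SE 0.24), Kcnk2 (0.46, SE 0.31) and Kcnj10 were all positive, against 50.8% of all genes, and 1 had an unadjusted p under 0.05, against 11.5% of all genes. Kcnk2 was at 0.09 without dKO replicate 2, and Kcnk1 at 0.18 without ctl replicate 2. Kcnj13 (0.12, SE 0.26) and Kcne2 (0.01, SE 0.26) had their highest OPC counts, 1249 and 2893, in ctl replicate 1, where the choroid plexus genes also summed highest, to 21230 FPKM against 9619 to 15330 elsewhere. Kcnk1 counted 1406, 730 and 906 in ctl and 1101, 1603 and 1227 in dKO. Within ctl it was also highest in replicate 1, and within dKO in replicate 2, as were the astrocyte markers. The part of either list in the Kcnk1 value was not tested.

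Kcnk6 is a tandem pore channel of macrophages and microglia, through which K+ leaves during inflammasome activation. In OPC libraries it counted 61.2, 63.1 and 75.2 in ctl and 173, 42.6 and 245 in dKO, so that dKO replicates 1 and 3 were above and replicate 2 below every ctl library (log2 fold change 1.20, SE 0.53, adjusted p = 0.433). Without dKO replicate 2 the log2 fold change was 1.65 with an adjusted p of 0.0232, and without dKO replicate 3 it was 0.69; p was under 0.05 only in the first of the 6 fits. All 10 microglia markers had an unadjusted p under 0.05 and were higher in dKO, with a median log2 fold change of 1.32. Their sum was 115, 116 and 140 FPKM in ctl and 362, 158 and 445 FPKM in dKO libraries, with dKO replicate 2 again the lowest of the 3 but above every ctl library. Summed endothelial markers were 572, 446 and 626 FPKM in ctl and 868, 388 and 1021 FPKM in dKO, with dKO replicate 2 below every ctl library. The part of either cell type in the Kcnk6 value was not tested. The other 4 channels named for microglia had negative values, against 50.8% of all genes above 0. Kcnk13 was at -0.34 (SE 0.19), Kcna3 at -0.24 (SE 0.42), Kcnn4 at -0.03 (SE 0.35) and Kcnj2 at -0.08 (SE 0.13), all with unadjusted p of 0.109 or more. Kcnk13 was highest in ctl replicate 2 (1621) and lowest in dKO replicate 3 (793), as were the summed oligodendrocyte markers (14260 and 8251 FPKM). The part of oligodendrocytes in the Kcnk13 value was not tested. Of the mural and endothelial channels, Kcnj8 (0.39, SE 0.51), Kcne4 (0.33, SE 0.31) and Kcnmb1 (-0.01, SE 0.19) had unadjusted p of 0.313 or more. Kcnj8 and Kcne4 were lowest in dKO replicate 2, as were the mural cell markers, a list that includes Kcnj8, at 229 FPKM against 264 to 448 FPKM.

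In the Neuron libraries, 9 of 67 genes (13.4%) had an unadjusted p under 0.05, against 9.00% of the 14352 genes tested. Of these, 8 (11.9%) were higher in dKO, namely Kcnn2, Kcnf1, Kcne2, Kcnc1, Kcnj13, Kcnh4, Kcnj3 and Kcnh1, against 4.96% of all genes, and Kcnj14 alone (1.49%) was lower, against 4.04%. The edgeR adjusted p was under 0.05 for 0 of them and for 0.00% of all genes, and the smallest was 0.521. With DESeq2 the count was also 0, and 10 genes (14.9%) had an unadjusted p under 0.05, against 10.7% of all genes. Groups did not overlap for 10 genes (14.9%), 7 higher and 3 lower in dKO, against 15.3% of all genes. By sign alone 45 of 67 (67.2%) were higher in dKO, against 51.1%. The median log2 fold change was 0.33, against 0.01 over all genes, and it was 0.05 without dKO replicate 1, in which 34 of the 67 genes had their highest count, and 0.53 without dKO replicate 3. The number with p under 0.05 was 3 without ctl replicate 3, in which 18 genes had their lowest count, and 14 without dKO replicate 2. In these fits 6.93% and 11.0% of all genes tested had p under 0.05, against 4.48% and 20.9% of the potassium channel genes.

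Kcnn2 was the only potassium channel gene with an unadjusted p under 0.05 in both tables, which is 1 of the 58 tested in both (1.72%), against 1.09% of the 13398 genes tested in both when matched by symbol. In Neuron libraries its counts were 146, 144 and 148 in ctl and 235, 243 and 220 in dKO. The spread within each group was narrow and the groups were apart, by a log2 fold change of 0.67 (SE 0.20, unadjusted p = 0.00963, adjusted p = 0.521) that stayed between 0.64 and 0.71, with p under 0.05, without any 1 of the 6 libraries. The silent subunit Kcnf1, which alters Kcnb channels of cortical neurons, counted 34.5, 14.6 and 15 in ctl and 111, 62.5 and 45.0 in dKO. It too was apart and kept p under 0.05 in 6 of 6 such fits (1.76, SE 0.55, adjusted p = 0.521, range 1.33 to 2.29). In OPC libraries Kcnf1 was at -0.04 (SE 0.85), with counts from 4.89 to 41.7, and the difference between cell types was not tested for either gene. Summed neuron markers in Neuron libraries were apart as well, at 513, 700 and 639 TPM in ctl and 921, 882 and 724 TPM in dKO, highest in dKO replicate 1 as was Kcnf1, and their part in the Kcnn2 and Kcnf1 values was not tested.

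Kcnj13 and Kcne2, the leading genes of the Neuron libraries, were high and low in the same libraries as choroid plexus genes. Kcnj13 counted 3377, 4047 and 2273 in ctl and 10940, 3038 and 6763 in dKO, and Kcne2 counted 1165, 1376 and 537 in ctl and 3635, 1205 and 2388 in dKO. For both, dKO replicates 1 and 3 were above and dKO replicate 2 within the range of ctl. The log2 fold changes were 1.10 (SE 0.42, adjusted p = 0.521) and 1.23 (SE 0.43, adjusted p = 0.521). Without dKO replicate 1 they were 0.60 and 0.81, without ctl replicate 3 they were 0.90 and 0.92, and p was not under 0.05 in either case; for Kcnj13 this held also without ctl replicate 1 (1.13) or dKO replicate 3 (1.11). The 10 choroid plexus genes summed to 30340, 28300 and 14500 TPM in ctl and 74410, 29110 and 49500 TPM in dKO libraries. The highest (dKO replicates 1 and 3) and the lowest library (ctl replicate 3) were those of Kcnj13 and Kcne2, and 9 of the 10 had an unadjusted p under 0.05 and were higher, with a median log2 fold change of 1.10. Kcnk1, the third gene by level, was also positive (0.80, SE 0.41, unadjusted p = 0.0847), with 1477 in dKO replicate 1 and 294 in ctl replicate 3 as its extremes, and was at 0.34 without dKO replicate 1. The part of choroid plexus RNA in these values was not tested. In OPC libraries the choroid plexus genes overlapped between groups, and so did Kcnj13 and Kcne2.

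**Figure D4:**
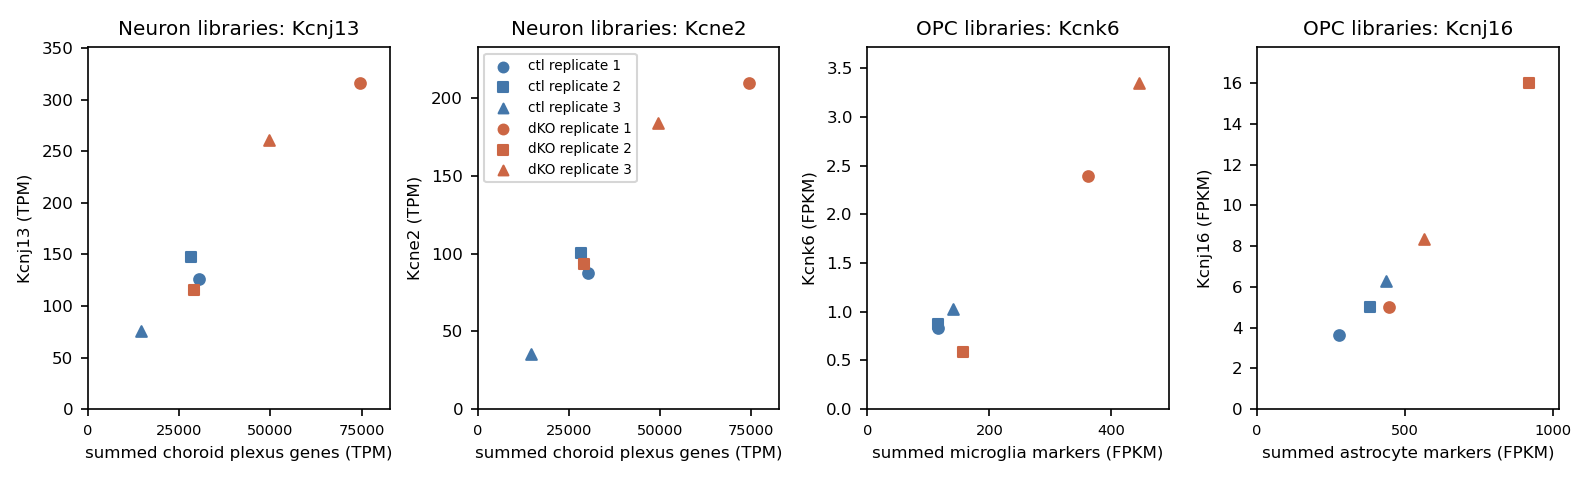
Level of Kcnj13 and Kcne2 against the summed level of 10 choroid plexus genes in the 6 Neuron libraries (TPM), and of Kcnk6 and Kcnj16 against the summed level of 10 microglia and of 10 astrocyte markers in the 6 OPC libraries (FPKM). Each point is 1 library, blue for ctl and orange for dKO, on linear axes from 0; the libraries highest for the list (dKO replicate 1 in Neuron libraries, dKO replicate 3 for microglia and dKO replicate 2 for astrocyte markers) are also highest for the channel.

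The Kcnh family, whose members give ether-a-go-go type currents in neurons, had 8 of 8 genes with a log2 fold change above 0 in Neuron libraries, from 0.20 for Kcnh6 to 1.21 for Kcnh1, with a median of 0.87, against 51.1% of all genes above 0, and 2 of 8 with an unadjusted p under 0.05, against 9.00% of all genes. The sign of Kcnh2 (0.35) turned without dKO replicate 1 (-0.25). In OPC libraries the family was mixed, with 4 of 6 tested genes above 0 and a median of 0.16. Kcnh4 counted 18.3, 40.9 and 27.9 in ctl and 61.7, 77.6 and 55.3 in dKO, with no overlap (1.16, SE 0.44, adjusted p = 0.521), and p was at or over 0.05 without ctl replicate 1 (0.91), ctl replicate 3 or dKO replicate 2. Kcnh1 counted 80.2, 107 and 26.8 in ctl and 236, 98.5 and 162 in dKO, which overlap (1.21, SE 0.52, adjusted p = 0.548). Its value was 0.82 without ctl replicate 3 and 0.86 without dKO replicate 1, and p was under 0.05 in 2 of 6 fits without 1 library. Kcnh5 (0.91, SE 0.50) and Kcnh8 (1.14, SE 0.53) lay higher in every dKO library, with unadjusted p of 0.103 and 0.0596. Summed neuron markers were also higher in every dKO library, at 724 to 921 TPM against 513 to 700 TPM in ctl. Kcnh1 was highest in dKO replicates 1 and 3 and lowest in ctl replicate 3, as were the choroid plexus genes. The part of either in these values was not tested.

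The remaining voltage-gated families had values of either sign in Neuron libraries, with 2 of the 6 Kcna genes tested above 0 and a median of -0.16. The 4 Kcnc genes were all above 0 with a median of 0.85, against 51.1% of all genes above 0, and Kcnc1 counted 68.0, 111 and 55.7 in ctl and 218, 162 and 108 in dKO (1.05, SE 0.38, adjusted p = 0.521). The highest ctl library was just above the lowest dKO library, and p was not under 0.05 without ctl replicate 1 (0.96), ctl replicate 3 (0.86) or dKO replicate 1 (0.78). Kcnj3, a subunit of the inward rectifier opened by G protein-coupled receptors, counted 34.5, 22.4 and 36.4 in ctl and 118, 37.9 and 62.5 in dKO. The groups were narrowly apart (1.23, SE 0.51, adjusted p = 0.546), the value was 0.69 without dKO replicate 1, and p was under 0.05 in 1 of 6 fits without 1 library. The sodium-activated Kcnt1 was apart as well, at 50.2 to 66.6 in dKO against 35.0 to 43.9 in ctl (0.48, SE 0.38, unadjusted p = 0.236). Of the neuron markers, whose sum was higher in every dKO library, 9 of 10 were above 0, with a median log2 fold change of 0.53 and 1 with an unadjusted p under 0.05, and their part in these values was not tested.

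**Figure D5:**
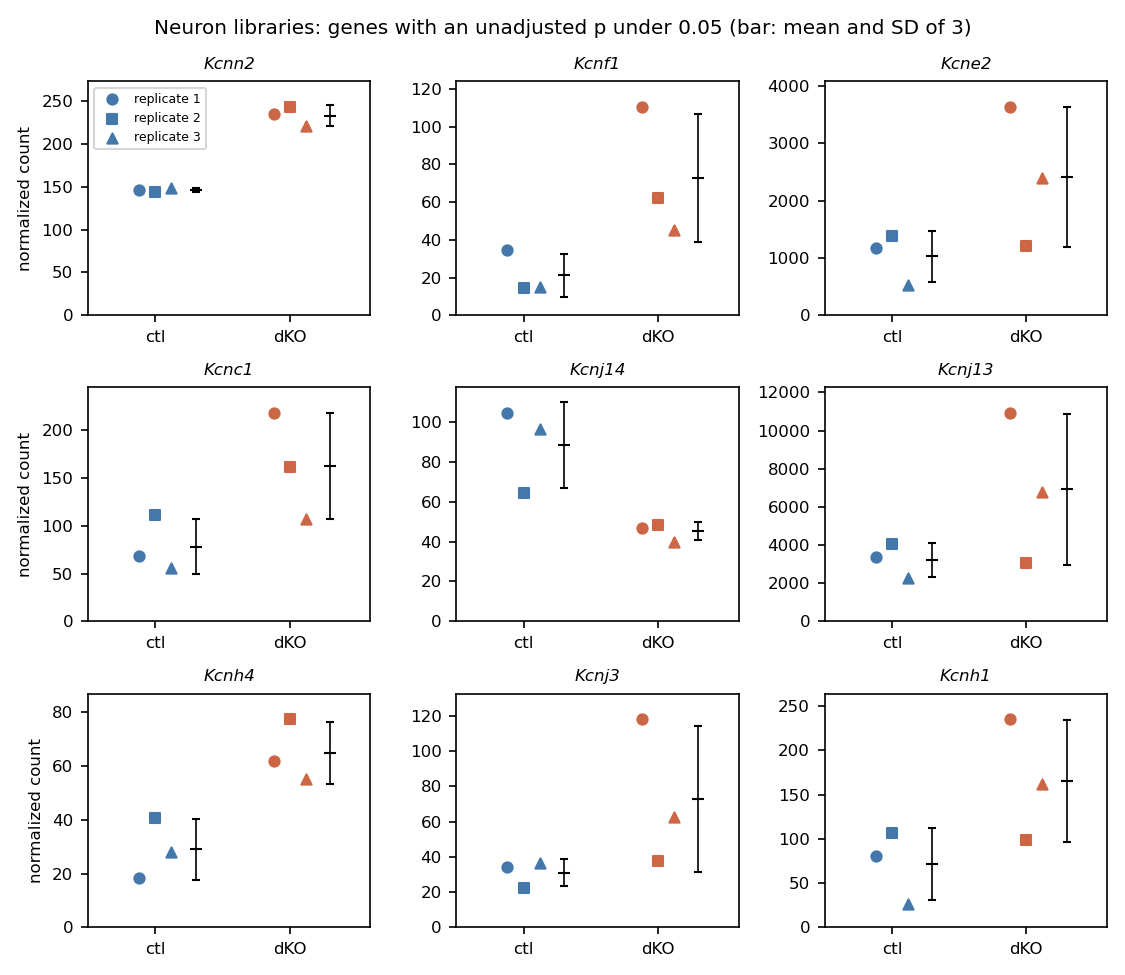
Normalized counts per Neuron library of the 9 potassium channel genes with an unadjusted p under 0.05, in order of p, with ctl in blue and dKO in orange, one marker shape per replicate and bars for mean and SD of 3. Kcnn2 has the narrowest groups, 144 to 148 in ctl and 220 to 243 in dKO, and dKO replicate 1 (circle) is the highest point for Kcnf1, Kcne2, Kcnc1, Kcnj13, Kcnj3 and Kcnh1.

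Lower values in dKO Neuron libraries were found among inward rectifiers and tandem pore channels. Kcnj14, an inward rectifier, counted 105, 64.2 and 96.4 in ctl and 47.0, 48.3 and 39.9 in dKO, without overlap (-0.97, SE 0.35, adjusted p = 0.521), and p was not under 0.05 without ctl replicate 1 (-0.83), ctl replicate 3 or dKO replicate 3. In OPC libraries it was at 0.87 (SE 0.49, unadjusted p = 0.112). Kcnk5, an acid- and volume-sensitive channel of epithelia, was apart at 18.6 to 51.2 in dKO against 52.8 to 121 in ctl (-1.11, SE 0.51, unadjusted p = 0.0612). Kcnj10 was at -0.41 (SE 0.59, unadjusted p = 0.507), and at 0.29 without ctl replicate 1. That library also held the highest sums of oligodendrocyte markers, which were 2751, 1474 and 337 TPM in ctl and 618, 856 and 1350 TPM in dKO libraries (0 of 10 genes above 0, median log2 fold change -0.95), and of OPC markers (1 of 10 above 0, median -0.84) and astrocyte markers (1 of 10 above 0, median -0.39, a list that includes Kcnj10). Their part in the Kcnj10 value was not tested. Endothelial markers summed to 15220 to 17480 TPM in ctl and 6815 to 14100 TPM in dKO libraries, lowest in dKO replicate 1, in which Kcnk5 and Kcnq1 (-0.36, SE 0.27) were also lowest, and their part in these values was not tested. Of the microglial channels 4 of 5 and of the mural and endothelial channels 2 of 3 were negative, and 0 of these 8 had an unadjusted p under 0.05, against 51.1% of all genes above 0 and 9.00% with such a p. Microglia markers had 0 of 10 log2 fold changes above 0 (median -0.67) and endothelial markers 0 of 10 (median -0.40). Mural cell markers, a list that includes Kcnj8, had 6 of 10 above 0 (median 0.02). The part of these cells in the values of these channels was not tested.

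Genes that work with potassium channels were compared in the same way. Of 20 channel partners, such as the Kcnip and Kcnab subunits and Dpp6, 17 were tested in OPCs and 0 were higher at an unadjusted p under 0.05, against 6.27% of all genes. The 1 lower gene, against 5.27% of all genes, was Adam22, a scaffold that holds shaker-type channels at axons, at 1565, 1591 and 1461 against 1731, 2148 and 1887 in ctl (-0.32, SE 0.11, adjusted p = 0.362). In Neuron libraries 0 of 18 passed in either direction, against 4.96% of all genes higher and 4.04% lower, and the Hcn cation channels gave 0 of 3 in OPC and 0 of 4 in Neuron libraries. Of the 11 Na+,K+-ATPase subunits and cation-chloride cotransporters, 3 were higher and 1 lower in OPCs at an unadjusted p under 0.05, against 6.27% and 5.27% of all genes. Among the higher ones, the glial pump subunit Atp1b2 (0.73, SE 0.26) had its highest count in dKO replicate 2, as did the astrocyte markers. In Neuron libraries 3 of 11 were higher and 0 lower, against 4.96% and 4.04% of all genes: the pump subunit Atp1b1 (0.83, SE 0.31), the Na+-K+-2Cl- cotransporter Slc12a2 (0.63, SE 0.20), both of which choroid plexus expresses strongly, and the neuronal K+-Cl- cotransporter Slc12a5 (1.15, SE 0.43). Slc12a2 counted 1766, 2515 and 1571 in ctl and 3380, 2532 and 3150 in dKO, and its groups did not overlap. No gene of these lists had an adjusted p under 0.05.

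The genes below the count minimum were 18 in OPC and 14 in Neuron libraries, 8 of them in both, with a ctl level of at most 0.186 FPKM and 0.443 TPM. They included most silent subunits (Kcng1, Kcng2, Kcng3, Kcns2, Kcnv1 and Kcnv2 in OPCs) and Kcne1 and Kcne3 in both tables. With no count minimum they were fitted too, and 0 of the 18 and 0 of the 14 had an unadjusted p under 0.05 in edgeR's test, against 10 of 82 and 9 of 81 potassium channel genes (12.2% and 11.1%) and 9.15% and 8.27% of all genes in those fits. For those tested, the standard error of the log2 fold change ranged from 0.13 to 0.85 with a median of 0.36 in OPC libraries, and from 0.18 to 1.15 with a median of 0.51 in Neuron libraries.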

How the data were processed

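Bulk RNA-seq of sorted OPC and Neuron libraries was analysed, with 3 libraries per group. The OPC table that the authors deposited holds raw counts by Ensembl gene beside FPKM values; their methods name HISAT2, GRCm38 and featureCounts, while the submitters' processing notes name mm39. For neurons, the authors deposited estimated counts and TPM values per RefSeq transcript, made with a program not given in the sources used here. The estimated counts and TPM were summed per Entrez gene and the counts rounded, and 17794 of 17918 identifiers were matched to symbols through RefSeq (GRCm38.p6), leaving 0.0441% of counts without a symbol. The fold change and p columns of the authors were not used. Every gene of a table whose TMM-normalized counts averaged 10 or more was tested with edgeR 4.0.16 (quasi-likelihood, genotype only, R 4.3.3) and adjusted by Benjamini-Hochberg; standard errors were derived from the estimate and its F statistic. FPKM and TPM served for levels only. Exact permutation of 3 against 3 libraries cannot give a p under 0.1, so none was used. Scripts were tested on simulated data. Replicates are pools of mice, and p-values measure the spread between these pools.

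Members and lists were chosen with earlier results of these data known. Genes are named for Kcnj10, an unadjusted p under 0.05, groups apart by at least 0.5 (log2), the 5 highest levels or the highest level of a family. Genes named besides these, as relatives or for comparison within a family, were chosen after their values were seen. Alternatives were DESeq2 1.42.0, median-ratio normalization, no count filter, a replicate block, bias-adjusted deviances and each library left out. Values of some genes that this rule or these lists hold are not reported here.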

Additional observations from a re-analysis of the deposited data

How the results depend on the processing

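The number of potassium channel genes with an adjusted p under 0.05 in OPCs was 0 with edgeR and 1 with DESeq2 (Kcnn2), and it ranged from 0 to 1 over the fits that left out 1 library (Kcnk6 without dKO replicate 2). It was 0 in Neuron libraries under every alternative. The share of all genes with such an adjusted p was not counted for DESeq2 or for the fits that left out 1 library. The number with an unadjusted p under 0.05 was 6 to 12 in OPCs and 3 to 14 in Neuron libraries when 1 library was left out, lowest without Neuron ctl replicate 3 and highest without Neuron dKO replicate 2. Of all genes, 6.36% to 13.2% in OPCs and 5.44% to 11.0% in Neuron libraries had such a p in these fits. Under the other alternatives the number was 8 to 10 and 7 to 11, against 9.15% to 11.9% and 8.27% to 10.7% of all genes. The median log2 fold change was 0.08 to 0.29 in OPCs and 0.05 to 0.53 in Neuron libraries with 1 library left out. When 1 library was left out, the sign turned for 22 of 64 genes in OPCs and 24 of 67 in Neuron libraries, 0 of them among the 9 with an unadjusted p under 0.05 in each; 2 and 3 of them had an absolute log2 fold change of at least 0.5. They included Kcne2 (-0.21 to 0.43), Kcnj13 (-0.09 to 0.53) and Kcnj10 (-0.10 to 0.11) in OPCs and Kcnj10 (-0.80 to 0.29) and Kcna4 (-1.51 to 1.55) in Neuron libraries. The cause was not tested. With the replicate number as a block, 9 genes in OPCs and 7 in Neuron libraries had an unadjusted p under 0.05, against 11.7% and 8.95% of all genes, and 0 an adjusted one. The edgeR p was then over 0.05 for Kcnd1 (0.0507) in OPCs and for Kcnh1 (0.0517), Kcnj13 (0.0609) and Kcnj14 (0.0506) in Neuron libraries, and under 0.05 for Kcnb2 in OPCs and Kcnk5 in Neuron libraries. The same-number correlations were -0.11, 0.15 and 0.12 in OPCs and 0.17, -0.07 and -0.07 in Neuron libraries, not over 0.1 for every pair, so the numbers were not taken to pair the libraries. With no count minimum, 10 genes in OPCs and 9 in Neuron libraries had an unadjusted p under 0.05, against 9.15% and 8.27% of all genes.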
